A study of Mus musculus with 6 samples.

Results

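The 10 keratin genes Krt5, Krt6a, Krt7, Krt8, Krt14, Krt15, Krt17, Krt18, Krt19 and Krt80 were followed in TuBo cells with and without p140Cap. They were taken by symbol from the 21960 genes counted, and each symbol matched 1 gene. TuBo cells grew out of a tumor that arose in the mammary gland of a BALB/c mouse with the rat NeuT oncogene driven by MMTV, and model HER2+ BC. RNA was sequenced from 3 mock libraries and 3 p140Cap libraries, and both groups share the Balb-NeuT background. p140Cap cells were transduced with a retroviral p140Cap cDNA, selected in puromycin and grown as single-cell clones, of which several were pooled. The deposited labels speak of control and p140Cap-overexpressing cell lines in one place and of mice in another, and the samples were read here as the TuBo line of the paper. No source used here says how mock cells were made or whether the libraries of a group come from separate cultures, so that p-values measure the spread between these libraries, which may be technical.

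Keratins are the intermediate filament proteins of epithelia. Every keratin filament is built from pairs of a smaller, acidic type I chain and a larger, basic type II chain, and cells make both kinds together. In the mammary gland, luminal cells are known for the simple-epithelial keratins Krt8 and Krt7 (type II) with Krt18 and Krt19 (type I), while basal and myoepithelial cells are known for Krt5 (type II) with Krt14 (type I), and for Krt17 and Krt15. Krt6a is a stress-inducible type II keratin of stratified epithelia, and Krt80 is a type II keratin found near desmosomes of differentiating epithelial cells. In mice the type II genes lie in one cluster on chromosome 15, and the type I genes in another on chromosome 11, except Krt18, which sits next to Krt8.

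Reads on genes numbered 33058719 to 75506562 per mock library but 13770385 to 15364850 per p140Cap library, so that rare keratins were measured less precisely in p140Cap cells. Srcin1, which encodes p140Cap, averaged 14.98 ± 1.96 CPM (reads per 1000000 reads, adjusted for library composition; SD, n = 3) in mock and 2343 ± 153 CPM in p140Cap cells. Every p140Cap library was above every mock library for this gene. Of 11800 genes with enough reads, 8388 differed between the groups (edgeR, quasi-likelihood F-test, adjusted p below 0.05), which is 71.1% of the genes tested, 35.9% of them lower and 35.2% higher in p140Cap cells. Any count of keratin genes below has to be read against these shares. In bulk RNA, fewer cells with a transcript and less of it per cell cannot be told apart.

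TuBo cells carried a narrow luminal keratin repertoire. Krt18, Krt8 and Krt7 held nearly all keratin reads, whereas Krt5, Krt14 and Krt19 were at or near 0 and Krt6a and Krt17 had no read in any library. Within this repertoire Krt7 fell to 0.557 of its mock level in p140Cap cells and Krt80 to 0.271 of it, Krt18 rose slightly, and Krt8 did not pass the test. Luminal markers other than keratins were expressed in both groups (Epcam at 892 CPM in mock and 1195 CPM in p140Cap cells), and Esr1 and Pgr, the hormone receptors of mature luminal cells, were below 1 CPM in both. The luminal and alveolar markers Elf5, Gata3, Prlr, Kit and Ehf stood at 335, 64.2, 85.4, 70.2 and 386 CPM in mock cells. In p140Cap cells they stood at 309, 59, 90.5, 112 and 522 CPM. Elf5 fell (log2 fold change -0.12, edgeR adjusted p = 0.0356), Kit and Ehf rose, and Gata3 and Prlr did not pass the test. Foxa1, another luminal marker, was at 3.34 CPM in mock and 1.34 CPM in p140Cap cells.

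The reference promoters of the 3 abundant keratins, Krt8, Krt18 and Krt7, of which the last fell and Krt8 did not pass the test, are shown with that of Krt5 as a basal keratin for contrast. RefSeq windows of the GRCm38.p6 build, from 250 bases before to 50 bases after the annotated start, were found for 5 of the 10 genes, namely Krt5, Krt7, Krt8, Krt14 and Krt18, and are written 5′ to 3′ on the strand of the gene. The window of Krt14 was not printed, as it belongs to a start inside the gene. Capitals mark every match, on either strand, of any of 5 motifs. The first, TATAAA, is the box at which the basal machinery assembles, and ATAAAA is a variant of it that can overlap it. GGGCGG is the GC box of the Sp factors. The AP-1 motif was searched as TGANTCA, and that of AP-2 as GCCNNNGGC.
Krt8 (chr15:102004293-102004592, minus strand): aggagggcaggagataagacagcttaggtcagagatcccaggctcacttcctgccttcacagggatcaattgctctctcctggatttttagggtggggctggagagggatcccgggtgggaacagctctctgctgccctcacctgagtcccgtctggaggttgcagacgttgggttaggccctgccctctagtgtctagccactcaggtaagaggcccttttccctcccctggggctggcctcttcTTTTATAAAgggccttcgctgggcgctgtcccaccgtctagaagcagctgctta
Krt18 (chr15:102027966-102028265, plus strand): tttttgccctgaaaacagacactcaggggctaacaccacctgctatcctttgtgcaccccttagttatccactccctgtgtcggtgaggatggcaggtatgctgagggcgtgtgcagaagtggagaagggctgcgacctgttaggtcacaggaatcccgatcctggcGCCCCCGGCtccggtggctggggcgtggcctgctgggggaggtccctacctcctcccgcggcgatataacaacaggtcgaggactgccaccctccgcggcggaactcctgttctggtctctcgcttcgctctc
Krt7 (chr15:101412153-101412452, plus strand): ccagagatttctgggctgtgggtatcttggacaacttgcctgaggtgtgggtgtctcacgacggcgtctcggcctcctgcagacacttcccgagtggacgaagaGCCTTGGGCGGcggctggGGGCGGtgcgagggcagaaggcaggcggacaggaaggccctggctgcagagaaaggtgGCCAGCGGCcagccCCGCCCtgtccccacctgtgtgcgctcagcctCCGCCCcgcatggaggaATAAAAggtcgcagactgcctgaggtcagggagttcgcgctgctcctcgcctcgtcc
Krt5 (chr15:101712856-101713155, minus strand): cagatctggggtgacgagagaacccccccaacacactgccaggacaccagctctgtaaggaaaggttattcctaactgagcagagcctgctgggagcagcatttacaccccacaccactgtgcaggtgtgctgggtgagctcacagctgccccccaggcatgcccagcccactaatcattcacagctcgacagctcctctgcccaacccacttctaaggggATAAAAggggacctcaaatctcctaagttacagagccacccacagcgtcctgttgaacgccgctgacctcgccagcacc

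The 4 windows differ in these letters. The window of Krt7 held 4 GC boxes, 2 AP-2 matches, of which the upstream one overlaps a GC box, and 1 ATAAAA at position -7 from the start. The window of Krt8 held TATAAA on both strands and ATAAAA on the opposite strand, all in 1 overlapping stretch at the start site. The window of Krt18 held 1 AP-2 match alone, and that of Krt5 1 ATAAAA at position -29 from the start. TGANTCA was in none of them. Among all 32851 windows of this length, 35.7% held a GC box, 16.6% an AP-2 match, 13.6% TATAAA, 18.5% ATAAAA and 7.81% TGANTCA. A match is a run of letters and no evidence that a factor binds there. Whether the annotated starts are those used in TuBo cells was not tested.

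Levels of different keratins were compared per length, in TPM (length-scaled reads per 1000000), computed from the summed exon length of each gene. Krt18 was the most abundant keratin. It was at 6431 ± 67.6 TPM in mock and 7563 ± 133 TPM in p140Cap cells (SD, n = 3 each), and ranked between 5 and 7 among 21649 genes in every library. Krt8 followed with 4076 ± 230 TPM in mock and 4344 ± 129 TPM in p140Cap cells, between ranks 14 and 16. Krt7 was at 584 ± 33.4 TPM and 323 ± 9.64 TPM. Its ranks were 203 to 236 in mock and 421 to 464 in p140Cap cells, with no overlap. These 3 keratins kept their order in every library, and no neighbors among them overlapped in level.

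The remaining members were lower by orders of magnitude. In mock cells Krt80 followed among the members at 2.25 ± 0.331 TPM and Krt15 at 1.09 ± 0.399 TPM, then Krt5 at 0.284 ± 0.0532 TPM, while Krt14 and Krt19 did not differ beyond their spread. In p140Cap cells Krt15, at 1.56 ± 0.459 TPM, stood above Krt80, at 0.601 ± 0.119 TPM. That exchange depended on the length used, since per coding length Krt80 was at 0.62 TPM and Krt15 at 0.447 TPM in p140Cap cells, with overlapping ranges. Krt80 overlapped Krt19 in p140Cap cells, and Krt5 and Krt14 rested on 1 read each.

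Krt8 (ENSMUSG00000049382; chr15:101996711-102004342 of GRCm38) is the type II partner of Krt18 in simple epithelia. Counts were 118668, 57577 and 55639 in the mock libraries, against 24871, 25238 and 22484 in the shallower p140Cap libraries. After normalization these were 1551, 1448 and 1671 CPM in mock and 1639, 1719 and 1651 CPM in p140Cap cells. The groups overlapped, because mock replicate 3 lay above 2 of the p140Cap libraries. The log2 fold change was 0.10 (SE 0.05, 95% interval 0.00 to 0.21, edgeR adjusted p = 0.101). Without mock replicate 3 it was 0.15 and passed the test (edgeR adjusted p = 0.0132), so that this library decides the call. Without mock replicate 2 the log2 fold change was 0.05 (edgeR adjusted p = 0.431). A processed pseudogene of Krt8 is annotated in GENCODE, and reads that it shares with Krt8 cannot be assigned with certainty.

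Krt18 (ENSMUSG00000023043; chr15:102028216-102032026), the type I chain that pairs with Krt8, rose. It was at 1802, 1775 and 1826 CPM in mock cells and at 2156, 2081 and 2165 CPM in p140Cap cells, and the lowest p140Cap library was above the highest mock library. Its log2 fold change was 0.24 (SE 0.04, edgeR adjusted p = 0.000123). The change was small for these data, as it exceeded that of 40.5% of all genes tested.

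Krt7 (ENSMUSG00000023039; chr15:101412403-101427806), a type II keratin of luminal and ductal epithelia, fell. Counts were 61173, 29686 and 28741 in mock against 6577, 6737 and 6120 in p140Cap libraries, or 799, 746 and 863 CPM against 434, 459 and 450 CPM. Each p140Cap library was far below each mock library. The log2 fold change was -0.84 (SE 0.06, 95% interval -0.95 to -0.74, edgeR adjusted p = 9.45e-10), larger in size than that of 86.2% of the genes tested. Under all 13 alternative settings it stayed between -0.90 and -0.79.

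Krt80 (ENSMUSG00000037185; chr15:101348315-101370162) had the largest change of the keratins tested. Counts were 224, 92 and 106 in mock against 13, 12 and 8 in p140Cap libraries, or 2.93, 2.31 and 3.18 CPM against 0.857, 0.817 and 0.588 CPM. The p140Cap libraries lay below the mock libraries without overlap. Its log2 fold change was -1.88 (SE 0.24, edgeR adjusted p = 2.08e-06), larger in size than that of 97.6% of the genes tested. The 33 reads in p140Cap cells limit its precision. The 95% exact counting interval on pooled reads (like all such intervals here, it spans counting error alone) put the level in p140Cap cells between 0.183 and 0.384 of that in mock cells. Krt7, Krt8 and Krt80, and also Krt5, Krt6a and Krt19, are each overlapped on the opposite strand by annotated genes that have no count of their own here, and no source used here says whether reads were assigned by strand.

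**Figure D1:**
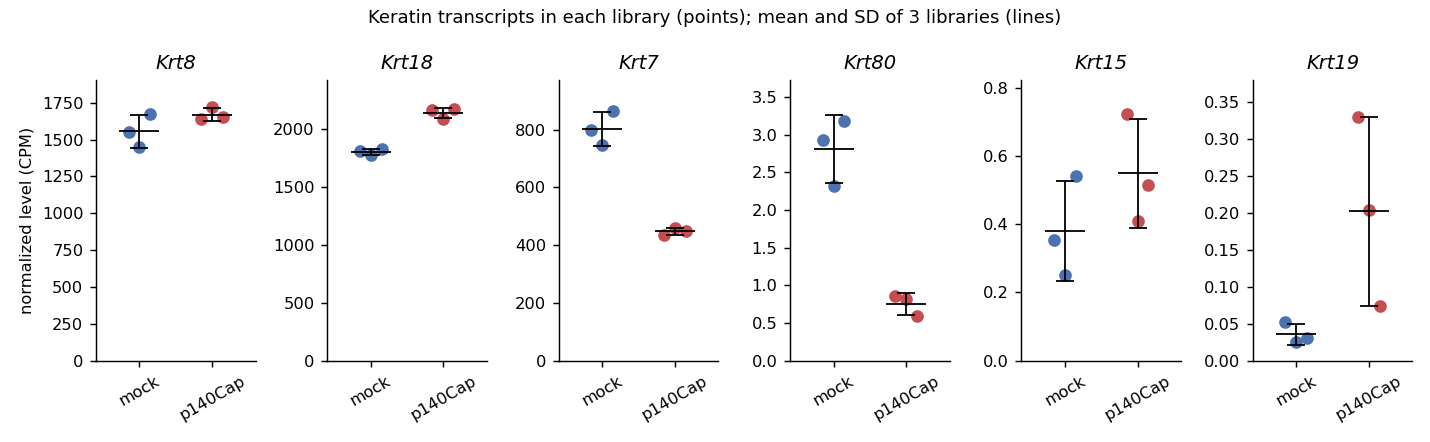
Normalized level in CPM, on linear axes that start at 0 and differ between panels, of Krt8, Krt18, Krt7, Krt80, Krt15 and Krt19 in 3 mock (blue) and 3 p140Cap (red) libraries, with mean and SD in black. Krt7 and Krt80 are lower and Krt18 is higher in every p140Cap library, the groups overlap for Krt8 and Krt15, and Krt19 stays below 0.33 CPM throughout.

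Of the basal keratins, Krt15 (ENSMUSG00000054146; chr11:100131759-100135949), a type I keratin of basal and progenitor-like cells, was the only member tested. Counts were 27, 10 and 18 in mock against 11, 6 and 7 in p140Cap libraries, which is 0.353, 0.251 and 0.541 CPM against 0.725, 0.409 and 0.514 CPM. The groups overlapped, and the log2 fold change of 0.58 had a 95% interval from -0.20 to 1.36 (SE 0.40, edgeR adjusted p = 0.206). Without p140Cap replicate 1 the log2 fold change was 0.31 (edgeR adjusted p = 0.607, range over the 8 alternatives that tested Krt15 0.112 to 0.607). At this depth no difference was detectable.

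Krt5 (ENSMUSG00000061527), the type II keratin of basal cells, was counted 9, 4 and 5 times in mock against 1, 0 and 0 times in p140Cap libraries. Pooled over libraries, the ratio of mock to p140Cap was 5.23, and its 95% exact counting interval, 0.826 to 218, includes a ratio of 1. Its partner Krt14 (ENSMUSG00000045545) was counted 4, 0 and 2 times in mock against 1, 0 and 0 times in p140Cap libraries, a pooled ratio of mock to p140Cap of 1.74 (0.212 to 80.2). Neither difference was detectable at this depth, and the few reads of Krt5 could include some of the genes that overlap it on the opposite strand. Krt6a (ENSMUSG00000058354) and Krt17 (ENSMUSG00000035557) had 0 reads in all 6 libraries, which allows a level of up to 0.0203 CPM over the mock libraries and 0.0681 CPM over the p140Cap libraries, by counting error only.

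Krt19 (ENSMUSG00000020911; chr11:100140810-100145926), a type I keratin of luminal cells, was nearly silent in both groups. Counts were 4, 1 and 1 in mock against 5, 3 and 1 in p140Cap libraries, that is 0.0523, 0.0251 and 0.03 CPM against 0.329, 0.204 and 0.0735 CPM. All 3 p140Cap libraries were above the mock libraries, and the pooled ratio of p140Cap to mock was 5.16, with a 95% exact counting interval of 1.64 to 17.6, on 6 reads in mock and 9 in p140Cap cells. The same limit of strand holds for Krt19, which an annotated gene overlaps. Krt19 did not reach the filter on low counts, which asks for about 0.413 CPM in 3 libraries. Without the filter its log2 fold change was 2.24 (edgeR adjusted p = 0.0237).

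Of the 10 keratins, 5 thus passed the filter. Among these 5, 2 (Krt7 and Krt80) were lower and 1 (Krt18) was higher in p140Cap cells, against 35.9% lower and 35.2% higher among all genes tested. Libraries of the 2 groups did not overlap for the same 3 keratins, against 73.4% of all genes. These counts do not set the keratins apart from other genes. Their median log2 fold change was 0.10, beside 0.00 over all genes tested.

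**Figure D2:**
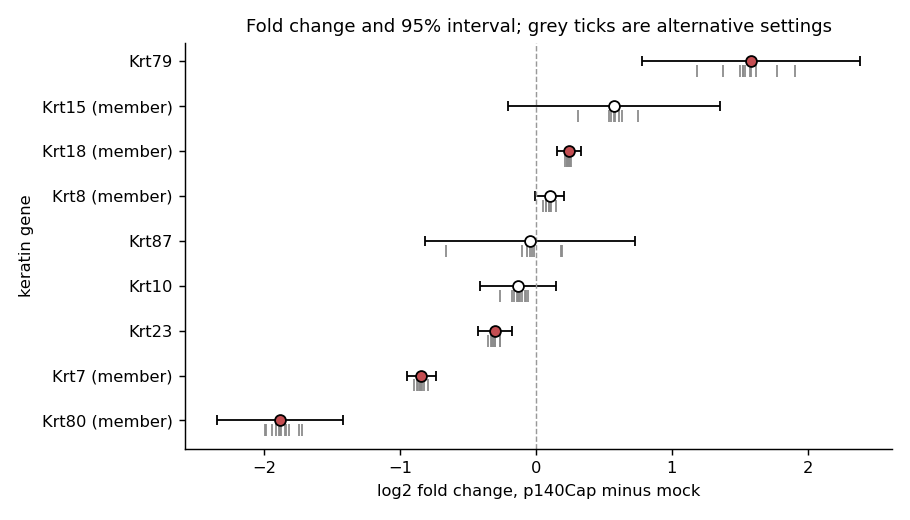
Log2 fold change of p140Cap against mock cells for the 9 keratin genes tested, with 95% intervals (1.96 SE). Filled points passed the test (edgeR), open points did not, and grey ticks give the values under the alternative settings, among which Krt87 is the one gene whose ticks fall on both sides of 0.

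The keratin total was nearly level between the groups. The 10 keratins together took 0.422 ± 0.0179% of the reads in mock cells and 0.42 ± 0.00206% in p140Cap cells (SD, n = 3 each), and their summed level was 4164 ± 196 CPM and 4253 ± 19.3 CPM. Without Krt7 the sum was 3361 ± 138 CPM in mock and 3806 ± 10.6 CPM in p140Cap cells, and the groups no longer overlapped. Krt7 made up 19.0 ± 0.495% of all keratin reads in mock cells and 10.4 ± 0.255% in p140Cap cells. Krt18 went from 42.8 ± 1.40% to 49.7 ± 1.17%, and Krt8 from 36.9 ± 0.915% to 38.9 ± 0.922%.

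The balance between the chains was then read per length, as keratins pair type I with type II. Summed over the 10 genes, the ratio of type I to type II was 1.39, 1.46 and 1.30 in mock and 1.67, 1.54 and 1.66 in p140Cap libraries. All p140Cap libraries were above all mock libraries. The type I sum, nearly all of it Krt18, went from 6433 ± 67.5 TPM in mock to 7565 ± 134 TPM in p140Cap cells. The type II sum was level, at 4662 ± 263 TPM and 4667 ± 138 TPM. The ratio was also taken with other lengths, added after seeing the data, as for Krt7 GENCODE lists 7049 bases of exon, 4094 bases in the canonical transcript and 1371 coding bases. Per coding length the ratio was 0.865 ± 0.05 in mock and 1.15 ± 0.0531 in p140Cap cells. There the type I sum went from 1589 to 1873 TPM and the type II sum from 1842 to 1629 TPM. Type I was in excess in both groups by exon length (means 1.383 in mock and 1.622 in p140Cap cells) and by canonical length (1.267 and 1.545). Which chain was in excess in mock cells thus depended on the length used and is not settled here. The ratio was higher in p140Cap cells for all 3 lengths, which divide the same reads and so are no separate evidence.

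Among the type II chains, Krt7 stood to Krt8 in a nearly fixed proportion within each group. The ratio of Krt7 to Krt8 per exon length was 0.143, 0.143 and 0.143 in the mock libraries (SD 0.000173), although each of the genes varied between 746 and 863 CPM and between 1448 and 1671 CPM across them. In p140Cap cells it was 0.0735, 0.0742 and 0.0756. By contrast the ratio of Krt18 to Krt8 was 1.58, 1.67 and 1.49 in mock and 1.79, 1.65 and 1.79 in p140Cap cells, and its groups overlapped. Set against Krt8, the level of Krt7 thus differed between the groups, and that of Krt18 differed less.

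**Figure D3:**
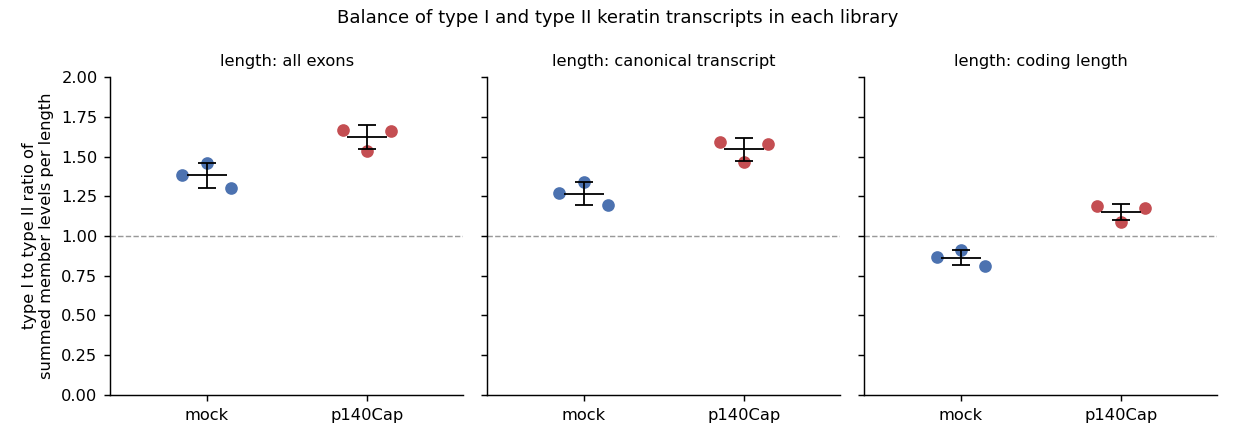
Ratio of type I to type II keratin levels, summed over the 10 genes, in each library (points) with mean and SD of 3 libraries (black), for 3 ways to assign gene length. Axes start at 0, and the dashed line marks a ratio of 1. Mock libraries lie below p140Cap libraries in each panel, and lie below 1 for coding length alone.

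Among the keratins outside the 10 members, Krt23 was the one with a sizeable level. Of the 44 other keratin genes in the table, 19 had no read in any library and 4 were tested, of which 1 was lower and 1 higher. Krt23 (chr11:99477973-99493120), a type I keratin of glandular epithelia, was the highest of them, at 64.4 TPM in mock and 51.8 TPM in p140Cap cells, between Krt7 and Krt80. It fell from 41.2, 44.0 and 46.4 CPM in mock to 33.6, 36.6 and 36.4 CPM in p140Cap cells, a log2 fold change of -0.30 (SE 0.06, edgeR adjusted p = 0.000393). Krt79, a type II keratin of skin gland ducts, rose with a log2 fold change of 1.58 (SE 0.41, edgeR adjusted p = 0.00252), on 13, 10 and 14 reads in mock and 12, 14 and 7 reads in p140Cap cells. Its raw counts were alike and its level per library size was not, and it passed the filter through the p140Cap libraries. Krt10, the type I keratin of suprabasal epidermis, was at 3.72 ± 0.239 CPM and 3.42 ± 0.536 CPM (edgeR adjusted p = 0.423), and Krt87, a hair keratin, at 0.48 ± 0.0719 CPM and 0.48 ± 0.292 CPM (edgeR adjusted p = 0.93).

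The related gene lists below were chosen with earlier results of these data known, and their counts stand beside 35.2% higher and 35.9% lower among all genes tested, with no test of a list against other genes. Of 14 genes whose proteins anchor or regulate keratin filaments, 13 were in the table and all of these were tested, with 8 higher, 1 lower and 4 that did not pass the test, and a median log2 fold change of 0.20. Dsp (desmoplakin), which ties keratin to desmosomes, went from 433 to 542 CPM, a log2 fold change of 0.33 (SE 0.05, edgeR adjusted p = 4.73e-05). Plec (plectin), a cross-linker of intermediate filaments, rose by 0.36 on the log2 scale (SE 0.08, edgeR adjusted p = 0.000515). Pkp2 (plakophilin 2), a desmosomal plaque protein, rose most, by 0.49 (SE 0.05, edgeR adjusted p = 9.02e-08). Tchp (trichoplein), a keratin-binding protein, fell by 0.37 on the log2 scale (SE 0.10, edgeR adjusted p = 0.00298), and Jup, which lies next to the type I cluster, had a log2 fold change of -0.13 (edgeR adjusted p = 0.0712).

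Among the other intermediate filament genes the lamins fell. Of 14 genes, 7 were tested, with 4 lower and 1 higher in p140Cap cells and a median log2 fold change of -0.54. The lamins Lmnb1, Lmnb2 and Lmna, which form the nuclear lamina, fell by 1.03, 0.78 and 0.65 on the log2 scale (edgeR adjusted p = 1.47e-11, 2.18e-08 and 1.1e-07). Vim (vimentin), the filament of mesenchymal cells, was at 203, 202 and 222 CPM in mock and 259, 279 and 258 CPM in p140Cap cells, and rose by 0.35 on the log2 scale (SE 0.05, edgeR adjusted p = 1.72e-05). Nes (nestin) was at 999 CPM in mock and 936 CPM in p140Cap cells (edgeR adjusted p = 0.0687).

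Of 17 transcription factors known to act at keratin promoters, 15 were tested, with 9 higher, 1 lower and 5 that did not pass, beside the same 35.2% and 35.9% of all genes, and a median log2 fold change of 0.21. Fos, a subunit of AP-1, rose by 1.49 on the log2 scale, from 7.44, 7.17 and 7.36 CPM to 21.95, 20.23 and 19.54 CPM (SE 0.08, edgeR adjusted p = 6.94e-11). Fosl2, another AP-1 subunit, rose by 0.56 (SE 0.06, edgeR adjusted p = 1.31e-07), and Grhl3, a factor of epidermal differentiation, fell by 0.92 on the log2 scale (SE 0.18, edgeR adjusted p = 0.000188). Trp63, which encodes p63, the master factor of basal epithelia, had 12, 11 and 7 reads in mock and 7, 5 and 5 reads in p140Cap cells. Per library size this was 0.157, 0.277 and 0.21 CPM in mock and 0.461, 0.341 and 0.367 CPM in p140Cap cells. The p140Cap libraries were thus above the mock libraries, on too few reads for a test.

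Markers of the mammary lineages without keratins were read beside the keratins. Of 14 luminal markers, 12 were tested, with 6 higher and 2 lower and a median log2 fold change of 0.11. Epcam, the epithelial adhesion molecule, rose by 0.42 on the log2 scale (SE 0.05, edgeR adjusted p = 4.35e-07) and Cdh1, E-cadherin, by 0.11 (SE 0.05, edgeR adjusted p = 0.0471). Muc1, an apical mucin, rose by 0.75 (SE 0.09, edgeR adjusted p = 1.35e-06) and Kit, a receptor of luminal progenitors, by 0.67 (SE 0.05, edgeR adjusted p = 8.02e-09), while Foxa1, a luminal transcription factor, fell by 1.34 on the log2 scale (SE 0.22, edgeR adjusted p = 4e-05). Of 12 basal or myoepithelial markers, 8 were below 1 CPM in both groups and 4 were tested, with 2 higher and a median of 0.39. Among the low ones was Acta2, the smooth muscle actin of myoepithelium. Itgb4, an integrin chain that also anchors other epithelial cells to the basement membrane, was among the basal markers that rose, by 0.28 on the log2 scale (SE 0.06, edgeR adjusted p = 0.000686).

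Markers of cells outside the epithelium were low. The summed level was between 9.96 and 10.6 CPM in mock and 11.4 and 14.2 CPM in p140Cap libraries for 7 fibroblast markers, of which Col1a2, Col3a1, Dcn and Lum were at 0 and Pdgfra was the highest, and between 2.08 and 2.34 CPM and 3.23 and 4.09 CPM for 8 immune markers, of which Ptprc, Cd3e, Adgre1 and Lyz2 were among those at 0. The 4 endothelial and the 4 adipocyte markers summed to less than 1 CPM in every library. These sums were higher in p140Cap libraries, and among the genes tested Col1a1 rose by 0.80 on the log2 scale (edgeR adjusted p = 0.000244), Cd68 by 0.83 (edgeR adjusted p = 0.000119) and Pecam1 by 1.25 (edgeR adjusted p = 0.0133). Pecam1 was at 0.235, 0.427 and 0.15 CPM in mock and 0.725, 0.477 and 0.735 CPM in p140Cap libraries. It passed the filter through the p140Cap libraries, where it was high, which limits its call. The part of these markers in the keratin values was not tested.

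The genes around the keratin clusters were counted next, and the clusters were not tested against each other. Within 1 Mb of the type II members on chromosome 15, where Krt7, Krt80, Krt8 and Krt18 lie, 34 other genes were tested, of which 21 were higher and 6 lower in p140Cap cells, with a median log2 fold change of 0.25. Pou6f1, Calcoco1 and Fignl2 had the largest changes there, at 1.88, 1.26 and 1.16 (edgeR adjusted p = 5.04e-12, 2.83e-11 and 6.19e-09). Within 1 Mb of the type I members on chromosome 11, 33 other genes were tested, 13 higher and 13 lower, with a median of -0.01. Tubg2, a γ-tubulin gene, had the largest change there, with 92, 41 and 46 reads in mock and 1, 0 and 0 reads in p140Cap cells, ahead of Psmc3ip and Ezh1, at log2 fold changes of -1.10 and 1.08 (edgeR adjusted p = 2.47e-08 and 9.24e-11). Tubg2 passed the filter through the mock libraries alone, and the size of its change rests on nearly no reads in p140Cap cells.

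**Figure D4:**
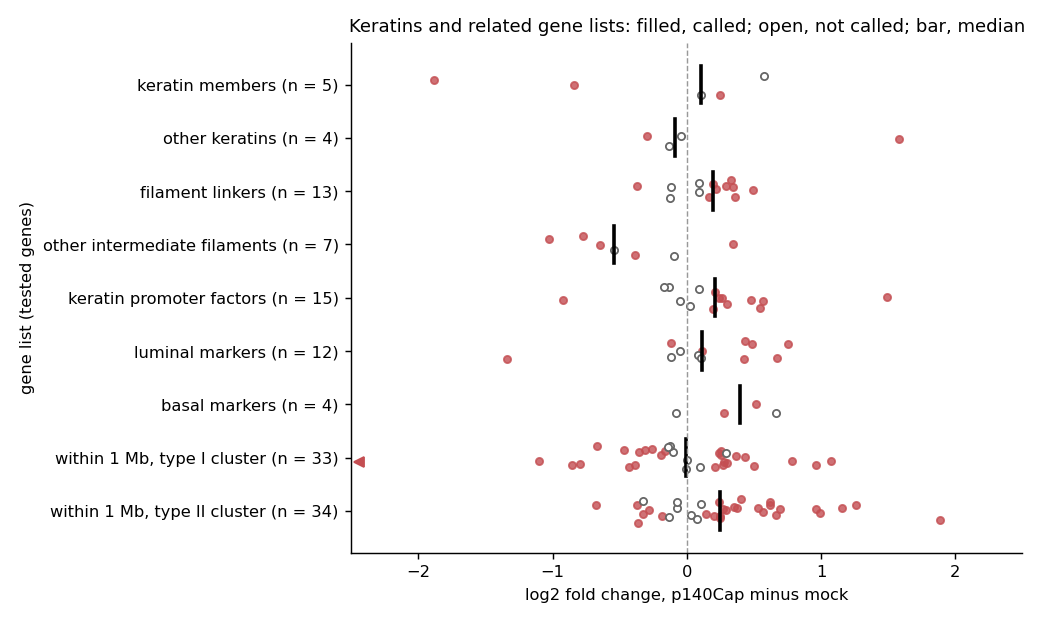
Log2 fold change of p140Cap against mock cells for each tested gene of the keratin members and the related lists. Filled points passed the test (edgeR), open points did not, black bars are medians, and the arrow at the left edge is Tubg2, which lies beyond the axis. Krt80 and Krt7 are the members farthest to the left, and the genes around the type II cluster have a median of 0.25.

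The genes most alike in pattern were sought for the keratin with the highest level and for that with the largest change, by the root mean square difference of centered log2 CPM over the 6 libraries. For Krt18 these were Cnot8, Cmas and Fdx1, with differences of 0.0171, 0.0185 and 0.0198, where the median gene differed by 0.215. For Krt80, Lrrc75b and Rcc1 were closest, at 0.15 and 0.154, where the median gene differed by 0.938. Rcc1, the nucleotide exchange factor of Ran, went from 24.4 CPM in mock to 7.29 CPM in p140Cap cells.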

How the data were processed

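RNA-Seq of 3 mock and 3 p140Cap TuBo libraries was analysed. Following the paper, stranded libraries were sequenced on an Illumina NextSeq and handled with docker4seq. The submitters' processing notes name STAR 2.5, RSEM 0.1.1 and mm10, with no role given, and the labels name poly(A) selection. The authors deposited counts, whole numbers of reads on 21960 genes per library, with no normalization. Total reads ranged from 13770385 to 75506562, and all 3 mock libraries were deeper than the p140Cap libraries. No 2 libraries of a group agreed within sampling noise (mean chi-square 1.75 to 10.7 per gene, where noise gives 1).

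In R 4.3.3, differential expression was tested with edgeR 4.0.16 (glmQLFit and glmQLFTest on TMM factors after filterByExpr, with group alone in the model, p-values adjusted after Benjamini-Hochberg over 11800 genes, threshold 0.05). SE was taken as |log2 fold change| over √F, and CPM uses TMM-adjusted library sizes. The fit was tested on simulated counts. Alternatives used DESeq2 1.42.0, limma-voom (limma 3.58.1), RLE factors, other filters, thinned libraries, each library left out, and the replicate number as a block. An exact permutation test of 3 against 3 libraries cannot give a p below 0.1 and was not used.

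Lengths and overlapping genes came from GENCODE vM39 by Ensembl identifier (98.6% of genes matched), positions and promoters from RefSeq on GRCm38.p6 by symbol. This is the build of the notes (mm10), whereas the paper names GRCm39, and the build used for counting could not be settled here. Canonical and coding lengths, and the sum without Krt7, were added after seeing the data. The members and lists were chosen with earlier results of these data known. By the rule for named genes, the text names all members, the other keratins tested, up to 3 called genes of each list with the largest change, Vim, Trp63, Plec, Dsp, Epcam and Cdh1, and the 3 genes most alike in pattern to Krt18 and Krt80. Some genes that this rule names are not reported here. Jup, Nes, Esr1, Pgr, Elf5, Gata3, Prlr, Ehf, Acta2, Pdgfra, Krt78 and the marker genes at 0 fall outside the rule and were picked with their values in view.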

Additional observations from a re-analysis of the deposited data

How the results depend on the processing

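Krt7, Krt18 and Krt80 kept direction and call under every alternative that tested them, which for Krt80 excludes the stricter filter (10 or more reads per library). That filter gave 1 keratin member called lower, and 1 other keratin called, since Krt80 and Krt79 were then not tested, and thinned libraries also gave 1 other keratin called, since Krt79 was not tested. Without a filter, 2 members were called higher, Krt18 and Krt19, and 3 other keratins were called, Krt23, Krt79 and Krt78, the last on 2, 3 and 1 reads in mock and 2, 7 and 4 reads in p140Cap libraries. With each library left out in turn, 1 to 2 members were called higher, and the log2 fold change of Krt8 lay between 0.0504 and 0.15 and passed the test in 1 of these fits, without mock replicate 3. Krt87 reversed to 0.18 without p140Cap replicate 1 and to 0.20 without p140Cap replicate 3, and lay between -0.66 and 0.20 with each p140Cap library left out. Krt15 lay between 0.31 (without p140Cap replicate 1) and 0.75 in those 3 fits. Krt15 and Krt87 did not pass the filter with a mock library left out, with thinned libraries or under the stricter filter. The keratin sum had a log2 ratio of group medians of 0.04, which was 0.0002 without mock replicate 2, 0.07 without mock replicate 3 and 0.18 without Krt7. The type I to type II ratio had one of 0.26, which was 0.44 per coding length. RLE factors were not run for that ratio, since library scaling cancels in it. All genes called numbered 7851 to 8716 over the 13 alternatives. Depth limits the keratins with few reads.

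With the replicate number as a block, 8034 genes were called, and the log2 fold change was -0.84 for Krt7, 0.24 for Krt18 and -1.87 for Krt80, with no call among the keratins changed. Deviations of same-numbered libraries correlated at -0.0299, -0.106 and -0.0573, which gives no sign of pairing by number. These values cannot settle whether same-numbered libraries were prepared together.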
